A study of Mus musculus with 18 samples.

Results

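The measure described here is the effect of losing Ftsj1 on tRNA fragments relative to its effect on total tRNA in mouse brain. For each mouse, the share of a tRNA among fragment reads was divided by its share among total tRNA reads, and the ratios of knockout (KO) and wild-type (WT) mice were compared. The table has 147 rows, each naming a tRNA and its anticodon (Phe2-GAA is the row Phe2 with anticodon GAA), and the 97 rows with a mean of 10 or more reads over the 12 libraries were kept. They cover 48 anticodons, and 22 of 23 amino acid classes passed the same limit, with initiator methionine (iMet) and selenocysteine (SeC) kept apart. The rows nearest the limit were Met6-CAT, left out at a mean of 9.58 reads, and Gln6-CTG, kept at 13.7.

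Both groups were male C57BL/6 mice aged 8 weeks, 3 WT and 3 Ftsj1 KO. Per the labels, RNA was taken from whole brain with no other treatment, the knockout allele is not described further, and each mouse gave a total tRNA, a tRNA fragment and a ribosome-contained tRNA library. Total tRNA and fragments were cut from gels by size, and AlkB, an enzyme that removes some base methyl groups, was applied before reverse transcription. Total tRNA libraries held 1505291 to 2000422 reads and fragment libraries 85323 to 151056. Fragment counts thus set most of the counting error for rows with more total than fragment reads. For rows scarce in total tRNA the total counts set more of it, as for Gly13-TCC with 51 to 182 total and 264 to 460 fragment reads. The table holds tRNA reads only, so neither Ftsj1 mRNA nor markers of brain cells could be checked. Of the 97 rows, 81 had a mean of 10 or more fragment reads, and 3 had no fragment read in any library.

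Transfer RNAs carry amino acids to the ribosome, and many of their bases and riboses are chemically modified. FTSJ1 places a methyl group on the ribose of anticodon loop nucleotides of a small set of tRNAs, of which those for phenylalanine and tryptophan are the best known. Nucleases can cut tRNAs, often in the anticodon loop, and the pieces are read here as fragments. Isodecoders are tRNAs that share an anticodon and differ elsewhere in sequence.

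Relative to total tRNA, fragments of the phenylalanine and tryptophan tRNAs rose in KO brain, and those of the glutamine tRNAs with anticodon CTG and of the serine tRNA Ser1-AGA fell. Of 97 rows 13 passed (13.4%), 6 higher (6.19%) and 7 lower (7.22%), at an adjusted p under 0.05 in the edgeR quasi-likelihood F test of the interaction with the mouse as a block. The median log2 change over all rows was -0.10. With other scaling the split was 6 higher and 4 lower (TMM over the 12 libraries), 7 and 3 (TMM within each library type) or 6 and 4 (DESeq2's size factors), and TMM within each type moved the median of all rows to 0.01. Without WT mouse 1 the count became 6, without KO mouse 2 it became 7, and without WT mouse 2 or WT mouse 3 it became 8. Every value is a share of one library, and in whole tissue fewer cells of a type and less RNA per cell cannot be told apart.

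**Figure D1:**
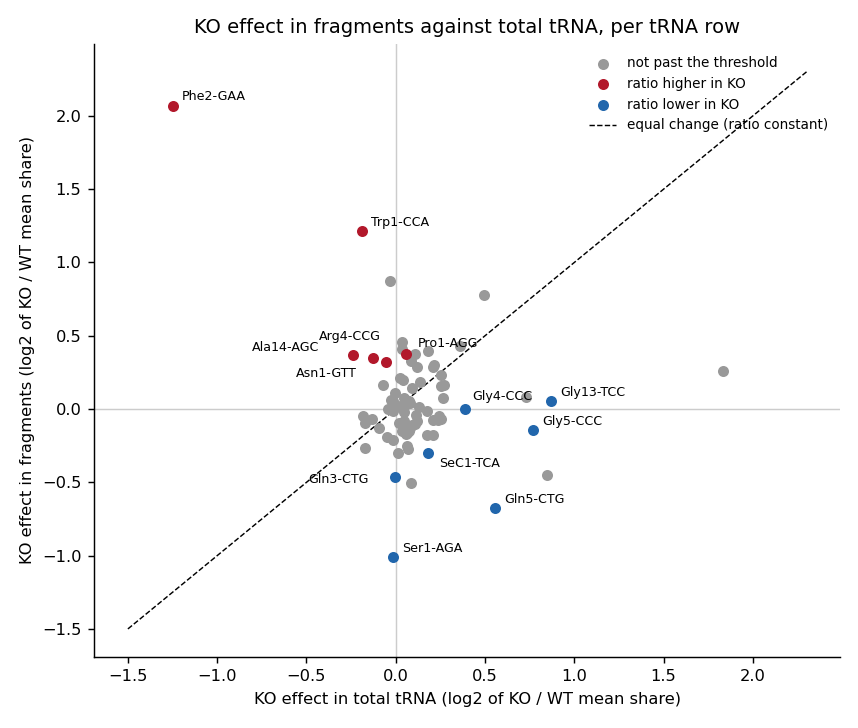
Each point is 1 of the 81 rows with a mean of 10 or more fragment reads. The horizontal axis gives the log2 of the KO over the WT mean share in total tRNA and the vertical axis the same for fragments; the dashed line marks equal change, and coloured points passed the test of the difference. Phe2-GAA lies at -1.25 in total tRNA and 2.07 in fragments, far above the line, and Gly13-TCC lies at 0.87 and 0.05, below it.

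Phe2-GAA, the phenylalanine tRNA, had the largest difference among the 81 rows with a mean of 10 or more fragment reads. RefSeq (GRCm38.p6) lists 7 genes with this anticodon, which the table holds as 1 row. Its fragment reads numbered 93, 106 and 115 in the WT mice and 650, 448 and 635 in the KO mice. Its ratio of fragment share to total share was 0.0320, 0.0456 and 0.0446 in WT and 0.366, 0.430 and 0.431 in KO mice. The KO ratios all lay far above the WT ratios, where KO lay above WT in 12.3% of the 81 rows. Both sides of the ratio had moved, since the fragment share rose by 2.07 on the log2 scale while the total share fell by 1.25. The fitted difference was 3.33 (SE 0.15, adjusted p = 1.98e-09, edgeR quasi-likelihood F test), a 10.1-fold change. In WT mice this ratio was the lowest of 80 rows ranked, and in KO mice it ranked 24 from the lowest of 81.

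Trp1-CCA, the tryptophan tRNA, also the 1 row of its anticodon (8 RefSeq genes), had 651, 473 and 604 fragment reads in WT and 1956, 1193 and 2089 in KO mice. Its ratio was 0.358, 0.393 and 0.357 in WT and 0.933, 0.884 and 1.11 in KO mice. The KO ratios all lay above the WT ratios, as in 12.3% of the 81 rows with a mean of 10 or more fragment reads. The fragment share was higher by 1.21 (log2 of the mean shares) and the total share differed by -0.19, so most of the change lay in the fragments. The fitted difference was 1.40 (SE 0.11, adjusted p = 1.38e-06, edgeR quasi-likelihood F test). Phe2-GAA and Trp1-CCA passed in all 16 alternative settings.

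Leucine tRNAs with anticodons CAA and TAA, also known to carry a ribose methyl group at the wobble base, did not pass. Leu3-CAA had ratios of 0.910, 0.787 and 0.783 in WT and 0.910, 0.881 and 0.970 in KO mice, which overlapped (difference 0.16, SE 0.12). Leu6-TAA had 0.246, 0.208 and 0.188 against 0.243, 0.211 and 0.200 (difference 0.02, SE 0.18), with 33 to 66 fragment reads per library. Leu9-TAA had no fragment read in any of the 6 libraries, where 3 reads would be 0.00199% to 0.00352% of a library.

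These leucine tRNAs, Phe2-GAA and Trp1-CCA form a list of wobble targets, of which 5 of 6 rows were kept and 2 rose, where 6.19% of all rows rose. Over the 4 of them with a mean of 10 or more fragment reads the median was 0.78, against -0.09 over all 81 such rows. No member lay near this median, which falls between Leu3-CAA (0.16) and Trp1-CCA (1.40). Leu6-TAA was at 0.02 and Phe2-GAA at 3.33. A second list, drawn from general knowledge, held candidate targets at the base that opens the anticodon loop. It named the phenylalanine and tryptophan tRNAs, Gln-CTG, Arg-CCG, Arg-TCG, Cys-GCA and Gly-CCC. Of its 18 kept rows, from 22 in the table, 3 were higher (Phe2-GAA, Trp1-CCA and Arg4-CCG) and 4 lower (Gln3-CTG, Gln5-CTG, Gly4-CCC and Gly5-CCC). Over all rows 6.19% were higher and 7.22% lower. The median of its 15 rows with a mean of 10 or more fragment reads was 0.06, with members on both sides.

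The other 4 rows that rose changed by less. Ala14-AGC, the alanine row with most fragment reads and one of the tRNAs whose wobble base becomes inosine, had ratios of 0.958, 1.12 and 1.06 in WT and 1.56, 1.68 and 1.53 in KO mice. The groups did not overlap, as was the case for 34.6% of the 81 rows with a mean of 10 or more fragment reads, 12.3% with KO higher. The difference was 0.61 (SE 0.10, adjusted p = 0.0017, edgeR quasi-likelihood F test), made up of a fragment share higher by 0.37 and a total share of -0.24, both log2 of the mean shares. It passed in all 16 alternative settings.

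Arg4-CCG, an arginine tRNA, had ratios of 0.286, 0.329 and 0.373 in WT and 0.423, 0.530 and 0.426 in KO mice (difference 0.48, SE 0.14, adjusted p = 0.0431, edgeR quasi-likelihood F test). Asn1-GTT, the asparagine tRNA, which carries queuosine, had 0.110, 0.123 and 0.113 against 0.152, 0.137 and 0.160 (0.38, SE 0.09, adjusted p = 0.0143, same edgeR test). Pro1-AGG, a proline tRNA, had 0.551, 0.601 and 0.595 against 0.734, 0.711 and 0.725 (0.31, SE 0.08, adjusted p = 0.027, same edgeR test). In each of these the KO mice lay above the WT mice, as in 12.3% of the 81 rows with a mean of 10 or more fragment reads. The fragment share moved more than the total share in each. These calls lay near the threshold and were lost with fewer mice: Asn1-GTT lost its call without WT mouse 1 (adjusted p = 0.0653) or WT mouse 3 (0.0684), Pro1-AGG without any mouse other than WT mouse 3 (0.0505 to 0.0772), and Arg4-CCG without any mouse other than KO mouse 3 (0.0572 to 0.202). The differences themselves stayed between 0.35 and 0.36 for Asn1-GTT, 0.27 and 0.34 for Pro1-AGG and 0.37 and 0.57 for Arg4-CCG in those fits. Both limma fits also ended the 3 calls (adjusted p = 0.0702 to 0.113).

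**Figure D2:**
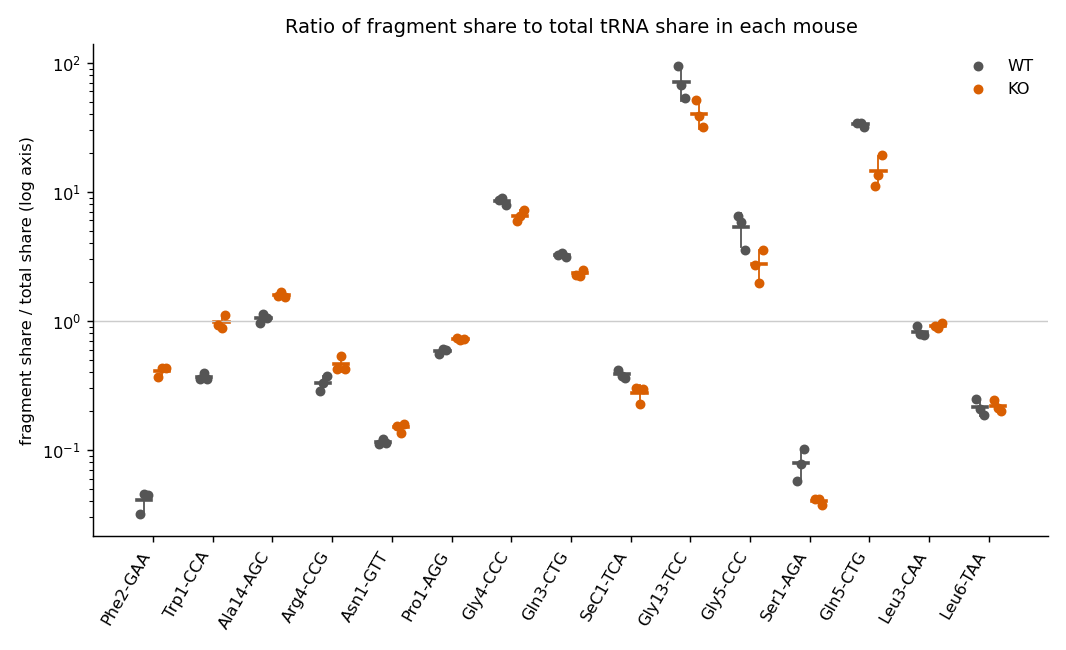
The vertical axis, on a log scale, gives the ratio of fragment share to total tRNA share; each point is 1 mouse, grey for WT and orange for KO, with bars at the mean and lines of 1 SD (n = 3 mice each). The 13 rows that passed and 2 leucine rows of the wobble list that did not are shown, and Phe2-GAA moved from a mean of 0.0407 to 0.409.

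Among the rows that fell, Gln5-CTG and Gln3-CTG, glutamine tRNAs with the same anticodon, were the 2 glutamine rows with enough fragment reads in that anticodon. Gln3-CTG had between 3590 and 4928 fragment reads in a WT mouse and between 2852 and 4687 in a KO mouse, and its ratios were 3.22, 3.35 and 3.10 against 2.28, 2.24 and 2.50. The KO mice lay below the WT mice, as in 22.2% of the 81 rows with a mean of 10 or more fragment reads. The change lay in the fragments, whose share fell by 0.46 (log2) while the total share differed by less than 0.01. The fitted difference was -0.46 (SE 0.09, adjusted p = 0.00237, edgeR quasi-likelihood F test). Gln5-CTG is scarce in total tRNA, its reads numbering 164 to 180 in the WT and 251 to 362 in the KO mice. Its ratios were 34.1, 34.0 and 31.8 in WT and 11.2, 13.4 and 19.2 in KO mice, so that its fragments were far over-represented in both groups and less so in KO. The difference was -1.23 (SE 0.18, adjusted p = 0.000667, same edgeR test), with the fragment share at -0.67 and the total share at 0.55. Both passed in all 16 alternative settings.

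Ser1-AGA, the only serine row of its anticodon with enough reads, had 217, 221 and 369 fragment reads in WT and 195, 126 and 205 in KO mice. Its ratios were 0.0579, 0.0773 and 0.102 in WT and 0.0416, 0.0414 and 0.0373 in KO mice. The KO mice lay below the WT mice, as in 22.2% of the 81 rows with a mean of 10 or more fragment reads. The WT mice were spread and WT mouse 3 was highest. The change lay in the fragments, with a fragment share of -1.01 and a total share of -0.02 (log2 of the mean shares). The difference was -0.96 (SE 0.18, adjusted p = 0.00237, edgeR quasi-likelihood F test), and 1 of 16 alternatives ended the call (limma on log2 ratios with a prior count of 0.5, adjusted p = 0.0704).

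The other 5 serine rows with a mean of 10 or more fragment reads were also below 0, between -0.59 and -0.20, and none of them passed. Of these, Ser6-CGA was nearest to the threshold (-0.59, SE 0.19, adjusted p = 0.055, edgeR quasi-likelihood F test). SeC1-TCA, the selenocysteine tRNA, had ratios of 0.414, 0.377 and 0.364 in WT and 0.302, 0.227 and 0.299 in KO mice. It passed (-0.47, SE 0.14, adjusted p = 0.0465, edgeR quasi-likelihood F test), with its fragment share at -0.30 and its total share at 0.18. It passed in 3 of 16 alternative settings. The call ended without the block (0.075), without any mouse other than KO mouse 3 (0.0772 to 0.202), with TMM over the 12 libraries (0.103) or within each type (0.147), with DESeq2's size factors (0.0524), in both limma fits (0.0702 and 0.0997), with the limit set on fragment reads (0.0511) and against ribosome-contained tRNA (0.551). Serine, leucine and selenocysteine tRNAs have a long variable arm. Of 14 such rows kept, from 19 in the table, 2 passed (14.3%), both lower. Over all rows 7.22% were lower and 13.4% passed in either direction. The median of the 13 with enough fragment reads was -0.20.

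The remaining 3 rows that fell were glycine tRNAs, and for each of them the larger move was in total tRNA. Gly13-TCC had 51, 71 and 84 total reads in WT and 118, 133 and 182 in KO mice, with ratios of 93.6, 67.0 and 53.2 against 51.1, 38.5 and 31.5 (difference -0.80, SE 0.22, adjusted p = 0.0406, edgeR quasi-likelihood F test). Gly5-CCC had ratios of 6.51, 5.81 and 3.56 against 2.73, 1.97 and 3.57, which overlapped (-0.89, SE 0.26, adjusted p = 0.0465, same edgeR test). Gly4-CCC had 8.71, 8.94 and 7.92 against 5.94, 6.46 and 7.20 (-0.39, SE 0.12, adjusted p = 0.0465, same edgeR test). The KO mice lay below the WT mice for Gly13-TCC and Gly4-CCC, narrowly so for Gly13-TCC, where 22.2% of the 81 rows did so. Their total shares were higher by 0.87, 0.77 and 0.39 (log2 of the mean shares), and their fragment shares differed by 0.05, -0.15 and less than 0.01. Gly13-TCC lost its call without any mouse other than KO mouse 1 (adjusted p = 0.0684 to 0.202), and Gly4-CCC and Gly5-CCC without any mouse other than KO mouse 3 (0.0572 to 0.225). Gly13-TCC passed in 6 of 16 alternative settings, Gly4-CCC in 4 and Gly5-CCC in 2. TMM within each library type, both limma fits, the limit set on fragment reads and the ribosome denominator ended all 3 calls (adjusted p = 0.0511 to 0.884). TMM over the 12 libraries and DESeq2's size factors also ended those of Gly4-CCC (0.114 and 0.0523) and Gly5-CCC (0.0535 and 0.0523), and Gly5-CCC lost its call without the block (0.132) and in DESeq2 (0.0694).

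Many rows scarce in total tRNA, Gly13-TCC and Gly5-CCC among them, moved the same way there. Of 31 kept rows below 0.05% of total reads on average over the 6 mice, a limit chosen after the values were seen, 30 had a higher mean share of total tRNA in KO mice, and in 15 all KO mice lay above all WT mice. Among the 66 rows above that limit these counts were 45 and 11. Rows were kept by raw reads, and the total libraries of KO mice 1 and 3 were the deepest (2000422 and 1859515 reads). Scarce rows high in KO total tRNA were thus kept more easily, and the part of this in the counts was not tested. The 31 rows together held 0.211%, 0.225% and 0.245% of total reads in the WT mice and 0.298%, 0.330% and 0.308% in the KO mice. Without the 3 of them that passed, Gln5-CTG, Gly13-TCC and Gly5-CCC, the WT mice averaged 0.197% ± 0.0102 and the KO mice 0.263% ± 0.0106 (SD, n = 3 a group). In the fragment libraries the 31 rows held 2.12% ± 0.134 in WT and 2.13% ± 0.0282 in KO mice, and in the ribosome-contained libraries 0.629% ± 0.181 and 0.551% ± 0.120. Gly4-CCC was not among the 31 rows. The part of this shift in the calls of Gln5-CTG, Gly13-TCC and Gly5-CCC was not tested.

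With ribosome-contained tRNA of the same mice as the denominator in place of total tRNA, 11 of the 13 rows kept their direction and 7 passed again: Phe2-GAA (2.90, SE 0.16), Trp1-CCA (1.28, SE 0.15), Ala14-AGC (0.73, SE 0.14), Arg4-CCG (0.71, SE 0.17), Gln5-CTG (-0.81, SE 0.21), Gln3-CTG (-0.53, SE 0.13) and Ser1-AGA (-1.29, SE 0.16). The fragment libraries are the same in both fits, so these are not independent of the values above. Gly13-TCC (0.07, SE 0.23) and Gly4-CCC (0.14, SE 0.16) changed sign, and Gly5-CCC (-0.32, SE 0.27), Asn1-GTT (0.28, SE 0.13), Pro1-AGG (0.32, SE 0.13) and SeC1-TCA (-0.29, SE 0.29) did not pass. Against this denominator the cysteine rows Cys19-GCA (0.57, SE 0.13) and Cys20-GCA (0.85, SE 0.30) were also higher, and His2-GTG (-0.47, SE 0.15), Ser6-CGA (-0.68, SE 0.23) and Ser14-TGA (-0.55, SE 0.18) also lower.

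**Figure D3:**
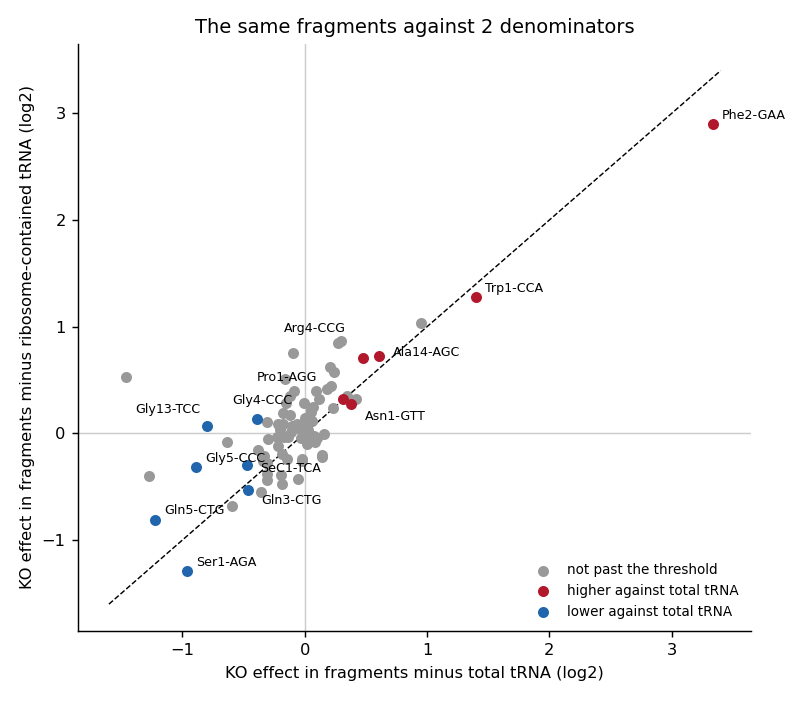
Each point is 1 of the 81 rows with a mean of 10 or more fragment reads, with the KO effect in fragments minus that in total tRNA on the horizontal axis and minus that in ribosome-contained tRNA on the vertical axis (both log2); the dashed line marks equal values and colours show the test against total tRNA. Phe2-GAA lies at 3.33 and 2.90, whereas Gly13-TCC lies at -0.80 and 0.07.

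Whether isodecoders of one anticodon differed was tested on the ratio of their ratios, in which library size cancels, in a comparison chosen after the data were seen. In 22 anticodons 35 rows were compared with the most-read row of their anticodon. None of the 35 pairs passed (0.0%) in limma with Benjamini-Hochberg adjustment, the smallest adjusted p being 0.190, and 8 had an unadjusted p under 0.05. Gln5-CTG was lower than Gln3-CTG by 0.76 (SE 0.18, adjusted p = 0.190 in limma), the pair with the smallest p, and it passed without KO mouse 3, when the count was 1. Gly5-CCC differed from Gly3-CCC by -0.82 (SE 0.28), Arg4-CCG from Arg6-CCG by 0.42 (SE 0.17) and Ala12-AGC from Ala14-AGC by -0.38 (SE 0.14). Gly3-CCC (-0.12, SE 0.10) and Arg6-CCG (0.06, SE 0.11) had not passed in the test against total tRNA, where their partners had, but the pairs themselves were not told apart.

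**Figure D4:**
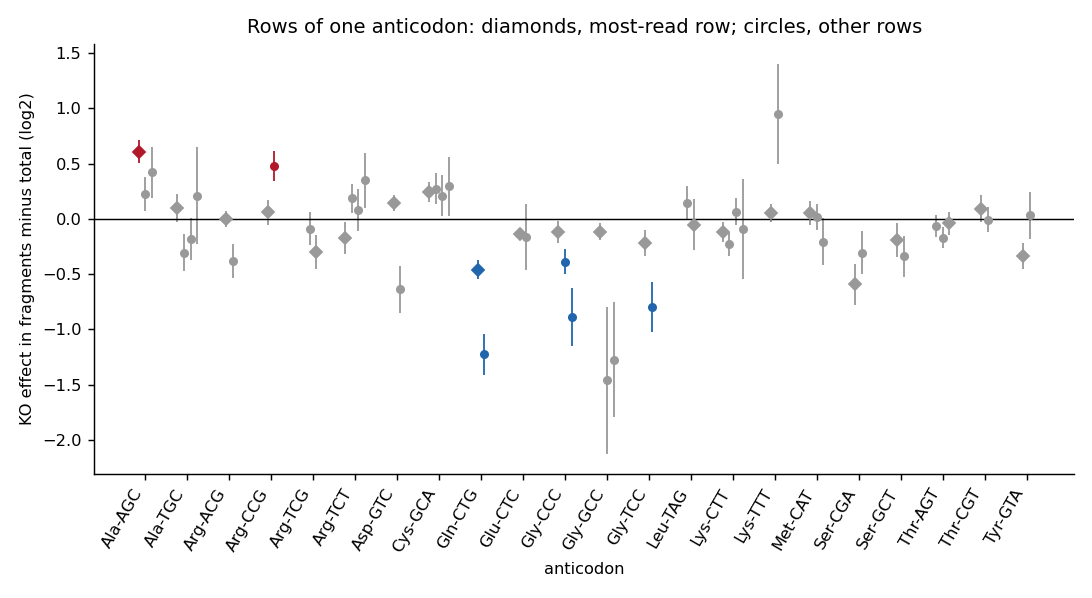
The vertical axis gives the KO effect in fragments minus that in total tRNA (log2, with lines of 1 SE) for rows with a mean of 10 or more fragment reads, grouped by anticodon along the horizontal axis; diamonds are the most-read row of an anticodon and circles the others, red where higher in KO, blue where lower and grey where not past the threshold. In Gln-CTG both rows lie below 0, at -0.46 and -1.23.

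Summed by amino acid, 12 of 22 classes passed (54.5%), 6 higher (27.3%) and 6 lower (27.3%), around a median of 0.00. Phenylalanine (3.33, SE 0.15, adjusted p = 2.45e-11, edgeR quasi-likelihood F test) and tryptophan (1.40, SE 0.12, adjusted p = 5.78e-08) are each 1 row and repeat the values above. Asparagine (0.38, SE 0.09), proline (0.31, SE 0.08), alanine (0.28, SE 0.08) and cysteine (0.25, SE 0.09) were the other classes that rose, with adjusted p between 0.0039 and 0.0263. Asparagine is also 1 row, Asn1-GTT, and Pro1-AGG held 1908 of the 1911 proline fragment reads of WT mouse 1. These classes therefore also repeat row values. Asparagine and proline passed in 13 of 16 alternative settings, alanine in 12 and cysteine in 10. Cysteine passed as a class and not as a row: its ratio was 0.718, 0.855 and 0.752 in WT and 0.898, 0.946 and 0.912 in KO mice, and its 4 rows with enough fragment reads lay between 0.21 and 0.29.

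Glutamine fell most (-0.51, SE 0.09, adjusted p = 0.00022, edgeR quasi-likelihood F test), from ratios of 3.12, 3.21 and 3.00 to 2.12, 2.09 and 2.36. Serine (-0.42, SE 0.12), selenocysteine (-0.47, SE 0.16), tyrosine (-0.31, SE 0.11), iMet (-0.22, SE 0.09) and glutamate (-0.12, SE 0.05) also fell, with adjusted p between 0.0146 and 0.0486. No row of tyrosine, iMet or glutamate was among the 13 that passed. Serine and selenocysteine passed in 12 of 16 alternative settings, tyrosine in 11, and iMet and glutamate in 6 each. With 1 mouse left out, glutamate kept its call only without WT mouse 2, and iMet only without WT mouse 3. The selenocysteine class repeats the ratios of SeC1-TCA, which passed in 3 of 16 as a row. The initiator tRNA, which starts every protein, had ratios of 2.40, 2.17 and 2.00 in WT and 1.90, 1.94 and 1.79 in KO mice. Glutamate is among the classes with most fragment reads, and its ratio was 1.73, 1.63 and 1.68 in WT and 1.54, 1.55 and 1.54 in KO mice. The KO and WT ratios did not overlap in these 12 classes, as in 59.1% of all 22.

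Of the 10 classes that did not pass, aspartate (0.15, SE 0.07) and valine (0.06, SE 0.09) were highest, and histidine (-0.18, SE 0.15) and glycine (-0.14, SE 0.06, adjusted p = 0.0568, edgeR quasi-likelihood F test) lowest. Leucine (0.01, SE 0.10) and lysine (-0.01, SE 0.06) lay nearest to 0.

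Scaling by DESeq2's size factors moved the median of the classes from 0.00 to -0.18 and the split from 6 higher and 6 lower to 2 and 9, with phenylalanine and tryptophan the 2 still called higher. Asparagine (0.20, adjusted p = 0.052 in edgeR), proline (0.13, 0.108), alanine (0.10, 0.163) and cysteine (0.07, 0.313) did not pass in that setting, though they lay above the shifted median. The 6 classes that fell passed again, with glutamate at -0.30 and iMet at -0.40. Glycine (-0.32), isoleucine (-0.24) and threonine (-0.27) also passed as lower there. Without WT mouse 1 the 12 classes became 5, and without KO mouse 2 they became 7. Without the block glutamate (adjusted p = 0.139), selenocysteine (0.0774) and iMet (0.0774) did not pass.

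**Figure D5:**
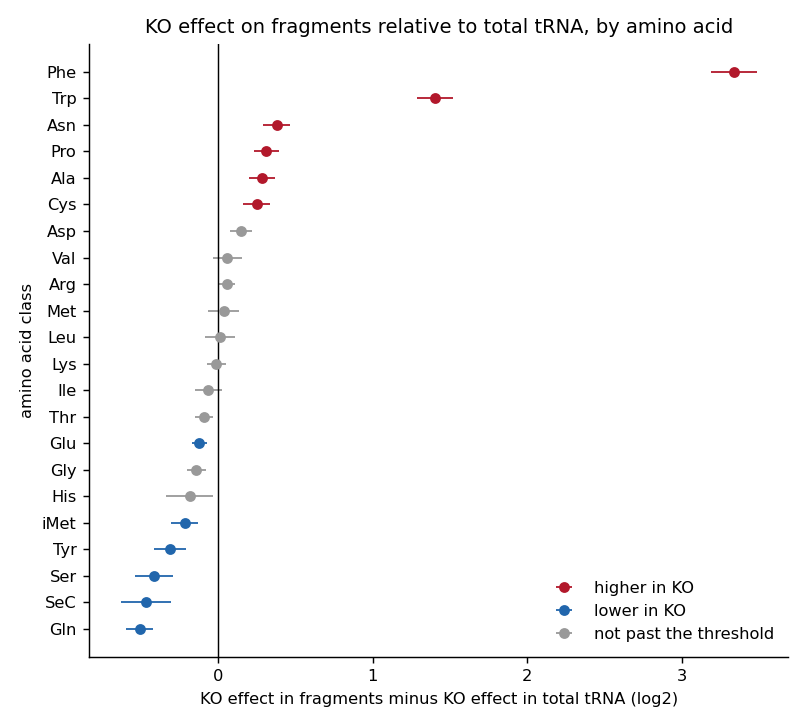
Each point is the KO effect in fragments minus that in total tRNA (log2, horizontal axis) for 1 amino acid class (vertical axis), with lines of 1 SE, coloured by direction where the test passed. Phenylalanine stands at 3.33 and tryptophan at 1.40, and the other 20 classes lie between -0.51 and 0.38.

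The remaining lists are set against 6.19% higher and 7.22% lower over all rows. Their medians are over the members with a mean of 10 or more fragment reads, where all such rows had -0.09. Of the 14 kept rows with a wobble inosine, from 32 in the table, 2 rose (14.3%, Ala14-AGC and Pro1-AGG) and 1 fell (7.14%, Ser1-AGA). Their median was -0.02 over 13 rows. Of the 22 kept rows of tRNAs often cleaved in the anticodon loop, from 33, none rose and 2 fell (9.09%), both Gly-CCC rows, with a median of -0.16 over 18 rows. Of the 6 rows of queuosine tRNAs 1 rose (16.7%), Asn1-GTT, and the median was -0.08. Over the 68 rows with a mean of 10 or more fragment reads that did not pass, 50 lay within 0.25 of 0 on the log2 scale. The median SE of the 81 rows was 0.14.

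For single rows, two-sided exact permutation tests on the log2 ratios of 3 against 3 mice cannot give a p below 0.1, which was reached where the groups did not overlap. The smallest value adjusted over the 97 rows was 0.294, and over the 22 amino acid classes 0.169. The calls above therefore rest on the fits, which share the estimate of the spread between rows.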

How the data were processed

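The authors deposited 1 table of raw counts for 147 tRNA rows and 18 libraries of 6 mice, titled as numbers of sequenced reads per the file headers. The submitters' processing notes give Bowtie2, with no role or version. Its settings, the tRNA reference, the build and the rule for multiply matching reads are not given in the sources read. Reads of near-identical tRNAs can therefore have been split between rows, and reads are not unique molecules. A share is the reads of a row over all tRNA reads of its library.

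Counts of the total and fragment libraries were fitted with edgeR 4.0.16 in R 4.3.3, with all tRNA reads as library size, no scaling factor, the mouse as a block, the library type and its interaction with genotype. Benjamini-Hochberg adjustment ran over all rows or classes kept, with a threshold of 0.05. The SE is the absolute log2 change divided by the square root of F. The labels number the brains of each genotype, and libraries of the same number were taken as 1 mouse and paired. Deviations from the group mean correlated by -0.18 to 0.22 within a mouse (6 pairs, 81 rows, median -0.09). Between mice they correlated by -0.23 to 0.28 (median 0.05), so libraries of the same number were no more alike. Alternatives used limma 3.58.1 and DESeq2 1.42.0; exact tests used SciPy 1.17.1. In 20 sets of simulated counts without a mouse effect, 86.7% of 1.5-fold and 96.7% of 2-fold row changes passed. Of unchanged rows 0.588% and 1% passed. Changes were placed only in rows with more fragment reads, so recovery in scarce rows was not checked. A ribosome-contained column headed K3 was taken as KO mouse 3.

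The rows named are those of the FTSJ1 wobble list, up to 10 higher and 10 lower past the threshold, the amino acid classes that passed, and the 2 farthest in each direction that did not; others were named after their values were seen. Members and lists were chosen with earlier results of these data known, so counts in a list are descriptions. The dropped 50 rows held at most 0.026% of the reads of a library.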

Additional observations from a re-analysis of the deposited data

Results flagged for a closer look

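The KO effect differed between fragments and total tRNA, by the test of the difference itself in edgeR, for 13 rows and 12 amino acid classes, which is what singles them out here. The log2 differences of the rows that rose were 3.33 for Phe2-GAA, 1.40 for Trp1-CCA, 0.61 for Ala14-AGC, 0.48 for Arg4-CCG, 0.38 for Asn1-GTT and 0.31 for Pro1-AGG. Those of the rows that fell were -1.23 for Gln5-CTG, -0.96 for Ser1-AGA, -0.89 for Gly5-CCC, -0.80 for Gly13-TCC, -0.47 for SeC1-TCA, -0.46 for Gln3-CTG and -0.39 for Gly4-CCC. By amino acid they were 3.33 for phenylalanine (Phe), 1.40 for tryptophan (Trp), 0.38 for asparagine (Asn), 0.31 for proline (Pro), 0.28 for alanine (Ala) and 0.25 for cysteine (Cys), and -0.51 for glutamine (Gln), -0.47 for selenocysteine (SeC), -0.42 for serine (Ser), -0.31 for tyrosine (Tyr), -0.22 for iMet and -0.12 for glutamate (Glu). With 3 mice a group no mouse was tested as standing apart.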

How the results depend on the processing

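The count of 13 rows became 7 with limma on log2 ratios (prior count 0.5) and 8 when a mean of 10 was asked of the fragment libraries, and ranged from 6 to 12 when 1 mouse was left out. It was 13 without the replicate block, 11 of them the same rows: Gly5-CCC and SeC1-TCA were lost, and Asp3-GTC (-0.64) and Ser6-CGA (-0.60) passed. The 12 amino acid classes became 7 with ribosome-contained tRNA as denominator, 9 without the replicate block, and 5 to 11 when 1 mouse was left out. The change of the mean log2 ratio of Phe2-GAA, 3.34, became 2.90 with the ribosome denominator. The count of 0 isodecoder pairs ranged from 0 to 1 when 1 mouse was left out. Some values changed sign. With the ribosome denominator these were Leu3-CAA (-0.0012), Leu6-TAA (-0.10), Gly13-TCC (0.070), Gly4-CCC (0.14), glycine (0.084) and aspartate (-0.22). With DESeq2's size factors and with DESeq2 itself, valine was at -0.12 in both and aspartate at -0.030 in both. With 1 mouse left out, Leu6-TAA was at -0.075 (KO mouse 1), -0.0058 (WT mouse 2) and -0.066 (WT mouse 3). The causes were not tested. Depth limits the 16 rows with a mean under 10 fragment reads, of which none passed in edgeR; limma on log2 ratios called Cys13-GCA and Ala22-CGC at a prior count of 0.5 and Ala22-CGC, Ala23-CGC and Ala24-CGC at 2.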

Other observations

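A few scarce rows held fragment or total reads in an uneven way, and none of those described here passed in edgeR. Cys13-GCA had 0, 0 and 1 fragment reads in WT and 5, 4 and 5 in KO mice, with 16 to 26 and 25 to 42 total reads, and passed in limma on log2 ratios with a prior count of 0.5 (1.89, adjusted p = 0.0355). Lys23-TTT, a lysine row, had 9, 11 and 24 fragment reads against 48, 22 and 38 (difference 0.95, SE 0.45, adjusted p = 0.228, edgeR quasi-likelihood F test). Ala22-CGC, an alanine row, had 92, 153 and 161 total reads in WT and 289, 282 and 392 in KO mice, with 1 fragment read over the 6 libraries together, and passed in limma with prior counts of 0.5 (-1.94, adjusted p = 0.0417) and 2 (adjusted p = 0.0104).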
